A study of Homo sapiens with 12 samples.

Results

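Imprinted genes are read mainly from the copy inherited from 1 parent, because DNA methylation laid down in the egg or sperm keeps the other copy silent. Many of them act on the growth of the fetus and placenta, and several are strongly made in the developing brain. The 10 genes described here were taken by symbol from a list of imprinted genes at loci outside chromosome 14, and they are 10 of the 58219 gene identifiers in the table. They are the zinc finger transcription factors PLAGL1 and PEG3, the cell cycle inhibitor CDKN1C, the receptor-binding adaptor GRB10, the growth factor IGF2 and its neighbouring non-coding RNA H19, the hydrolase-like MEST, the retrotransposon-derived PEG10, and NDN and SNRPN from the Prader-Willi region. The values report the summed RNA of both parental copies, so whether a copy was silent was not measured here.

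The RNA, selected for its poly(A) tail, came from cultures of H9, an established line of human embryonic stem cells, taken through neural differentiation. The groups were SOX21-/- cells at days 0, 4 and 8 and wild-type cells at days 0, 4 and 8, with 2 libraries in each group and 12 in all. The SOX21-/- libraries carry the line labels S13 and S23, and the wild-type libraries WT1 and WT2; the labels do not say how the SOX21 gene was changed, whether each line label is a clone, or whether the libraries of a group are separate cultures. SOX21 encodes a transcription factor of neural progenitors. The p-values therefore measure only the spread between these libraries, which may be technical.

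SOX21 RNA itself was at 253 and 69.9 TPM in the SOX21-/- libraries S13 and S23 at day 8, against 129 and 100.04 TPM in the wild-type libraries WT1 and WT2. It passed the test at none of the 3 days (limma, adjusted p of 1 at day 0, 1 at day 4 and 0.898 at day 8), so the genotype rests on the labels and SOX21-/- below means a library so labelled. Of 5 pluripotency markers, POU5F1, NANOG, DPPA4 and TDGF1 were lower in level at day 8 than at day 0 in both genotypes, POU5F1 being at 0.283 and 1.41 TPM in SOX21-/- and 0.895 and 0.508 TPM in wild type at day 8, against 1510 and 1680 TPM in SOX21-/- and 1740 TPM in both wild-type libraries at day 0. LIN28A was the exception, at 608 and 701 TPM in SOX21-/- and 685 and 662 TPM in wild type at day 8, against 176 and 148 TPM in SOX21-/- and 168 and 171 TPM in wild type at day 0. The sum of 5 neural progenitor markers at day 8 was 1220 to 1350 TPM in SOX21-/- and 1090 to 1180 TPM in wild type, with HES5 the other way (112 and 128 TPM in SOX21-/-, against 156 and 157 TPM in wild type). Values are in TPM, a length-corrected share of the RNA of a library scaled to a fixed total, so levels of different genes can be compared while the number of reads behind them is unknown.

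PLAGL1 and MEST, together with CDKN1C, are the members whose RNA differed between genotypes at some day, and the promoter windows of PLAGL1 and MEST are shown for that reason. Each window runs from 250 bases before to 50 bases after a transcript start in RefSeq on GRCh38.p14, is written 5′ to 3′ on the gene's strand, and has each CG pair, the target of DNA methylation, in capitals. RefSeq gave 5 windows for PLAGL1, on the minus strand, and 5 for MEST, on the plus strand; 3 of PLAGL1 and 1 of MEST are printed. The most upstream PLAGL1 window, at chr6:144064550-144064849, held 31 CG pairs, the next one shown, at chr6:144008210-144008509, held 39, and the most downstream, at chr6:143961363-143961662, held 2. The MEST window, at chr7:130491808-130492107, held 22. The median over 35116 promoter windows was 14.
PLAGL1, most upstream start: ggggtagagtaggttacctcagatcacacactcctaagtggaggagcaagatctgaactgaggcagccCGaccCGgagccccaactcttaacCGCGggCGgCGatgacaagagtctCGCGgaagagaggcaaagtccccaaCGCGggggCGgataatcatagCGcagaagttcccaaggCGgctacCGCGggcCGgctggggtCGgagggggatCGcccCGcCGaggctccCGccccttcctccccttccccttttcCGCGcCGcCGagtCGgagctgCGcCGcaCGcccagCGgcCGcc
PLAGL1, CG-rich internal start: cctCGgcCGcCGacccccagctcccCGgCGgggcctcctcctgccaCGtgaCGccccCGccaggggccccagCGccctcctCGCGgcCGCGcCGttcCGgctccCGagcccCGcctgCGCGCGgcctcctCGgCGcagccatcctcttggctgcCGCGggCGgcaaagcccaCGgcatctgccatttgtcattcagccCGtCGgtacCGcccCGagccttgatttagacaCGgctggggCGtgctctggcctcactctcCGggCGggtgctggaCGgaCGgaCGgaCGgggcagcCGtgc
PLAGL1, most downstream start: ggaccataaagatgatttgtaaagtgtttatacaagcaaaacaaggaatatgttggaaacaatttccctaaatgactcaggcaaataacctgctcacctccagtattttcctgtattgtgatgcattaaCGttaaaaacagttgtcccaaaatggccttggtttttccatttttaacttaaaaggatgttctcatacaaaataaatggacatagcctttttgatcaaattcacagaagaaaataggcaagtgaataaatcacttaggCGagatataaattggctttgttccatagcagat
MEST: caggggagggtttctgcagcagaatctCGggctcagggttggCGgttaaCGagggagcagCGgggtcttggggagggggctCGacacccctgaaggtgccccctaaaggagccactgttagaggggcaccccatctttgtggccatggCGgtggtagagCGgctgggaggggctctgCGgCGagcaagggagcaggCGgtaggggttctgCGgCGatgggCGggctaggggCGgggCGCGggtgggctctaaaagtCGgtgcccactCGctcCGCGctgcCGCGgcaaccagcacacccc

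SOX proteins bind short AT-rich motifs, of which ACAAAG and AACAAT were looked for on both strands. ACAAAG was found in 3 of the 5 PLAGL1 windows, once each, namely the most downstream one, which also held 1 match to AACAAT, and both windows not printed. The printed MEST window held 1 match to ACAAAG and none to AACAAT. Another MEST window, at chr7:130491835-130492134, overlaps it and held the same site, so 1 site was counted in both. The remaining MEST windows and both CG-rich PLAGL1 windows held neither. Windows were counted for each motif separately: 16.1% of all 35116 promoter windows held ACAAAG and 10.1% held AACAAT. Such a match is a description of the letters and not of binding. Which start was used cannot be read from gene-level TPM. Windows for H19, GRB10, NDN and SNRPN were matched too and are not printed, since those genes passed no genotype test. The GRB10 window at chr7:50705252-50705551 held 1 match to ACAAAG, and the SNRPN window at chr15:24956050-24956349 held 1 match to AACAAT. The H19 and NDN windows held neither. IGF2, CDKN1C, PEG3 and PEG10 are named only.

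The 10 genes covered nearly the whole range of RNA levels in these cells. SNRPN, whose protein is part of the splicing machinery in brain, stood highest of the 10 at day 0, with a mean of 273 ± 10 TPM in SOX21-/- and 272 ± 13.2 TPM in wild type (SD, n = 2 each), a level above that of 98.2% of the genes tested in either genotype. MEST came next at 94.0 ± 6.52 TPM in SOX21-/- and 88.7 ± 9.64 TPM in wild type. PEG10 followed at 34.2 ± 7.10 and GRB10 at 24.8 ± 6.22 TPM in SOX21-/-, and their libraries overlapped there; in wild type PEG10 was at 28.7 ± 1.71 and GRB10 at 23.2 ± 1.19 TPM, without overlap. NDN, CDKN1C and PLAGL1 were low, at 7.38, 3.67 and 1.14 TPM in SOX21-/- and 6.47, 2.78 and 1.06 TPM in wild type. H19 and IGF2 were below 1 TPM in all 4 libraries of day 0.

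PLAGL1 held rank 7 of the 10 at day 0 in both genotypes, and at day 8 it held rank 4 in SOX21-/- and rank 6 in wild type. In SOX21-/- the day 8 levels ran from SNRPN (226 TPM) and MEST (198 TPM), whose libraries overlapped, through PEG10 (123 TPM), PLAGL1 (108 TPM) and GRB10 (57.5 TPM) to NDN (36.8 TPM) and CDKN1C (31.7 TPM), which overlapped each other, and then IGF2 (6.39 TPM) and H19 (2.31 TPM). In wild type MEST (244 TPM) stood above SNRPN (221 TPM), PEG10 (150 TPM), GRB10 (69.2 TPM) and NDN (51.3 TPM), and PLAGL1 (25.8 TPM) above CDKN1C (15.0 TPM), IGF2 (7.30 TPM) and H19 (1.35 TPM), with no neighbours overlapping. PLAGL1 thus stood above GRB10 and NDN in SOX21-/- and below both in wild type. PEG3 was listed at 0 in all 12 libraries.

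**Figure D1:**
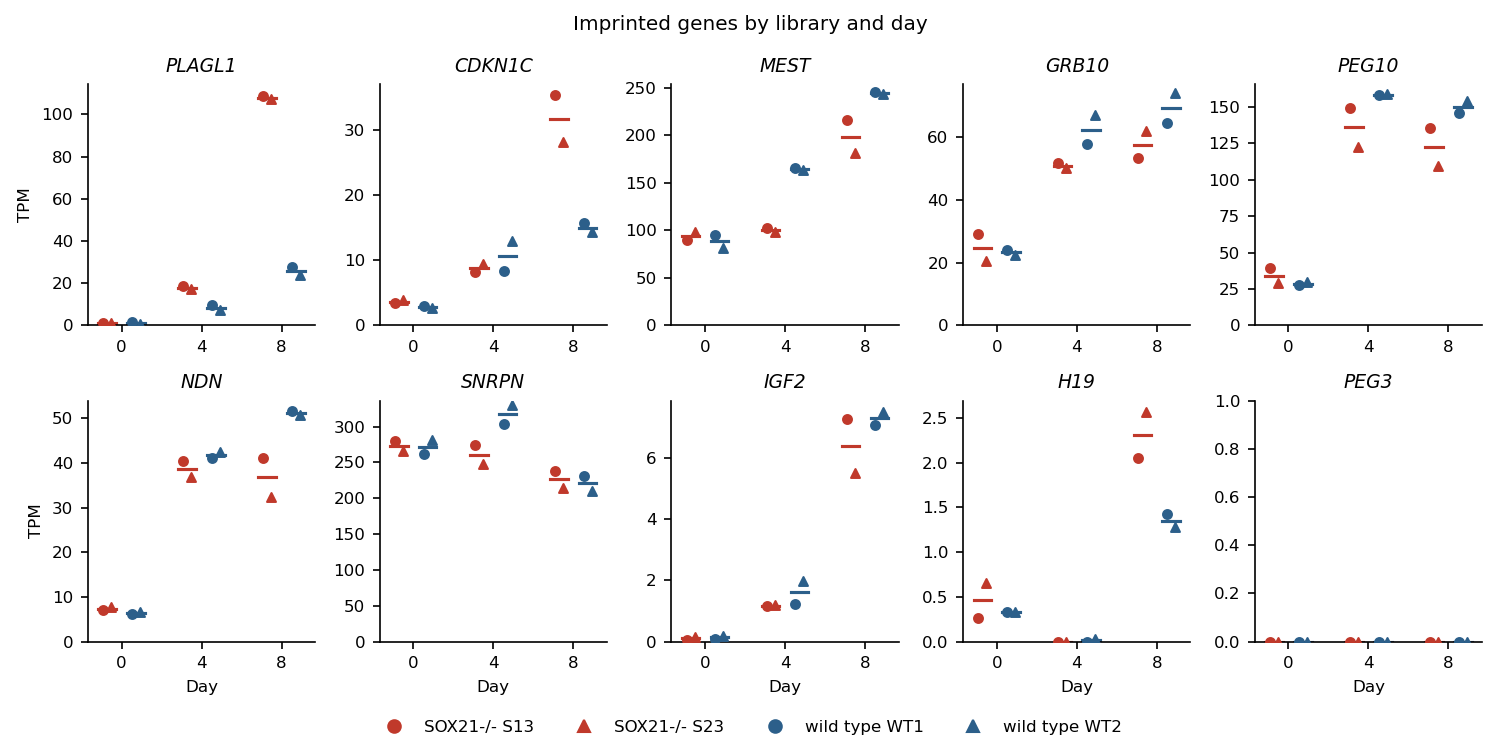
TPM (vertical axis, linear, from 0) of each of the 10 imprinted genes against day of differentiation, with SOX21-/- in red to the left and wild type in blue to the right at each day; points are single libraries and the bar is the mean of 2. PLAGL1 at day 8 lies at 107 and 109 TPM in SOX21-/- and at 23.9 and 27.6 TPM in wild type, and PEG3 is at 0 throughout.

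Of the 10 genes, 9 reached the minimum for testing, which was 1 TPM in any 2 libraries or more; PEG3 did not, and H19 did so only through day 8. At day 0 none of the 9 differed between SOX21-/- and wild type, where 0.384% of the 24248 genes tested did (limma on log2(TPM + 1), adjusted p under 0.05). No alternative gave a call at day 0. At an unadjusted p under 0.05 (limma) the counts of the 9 were 0 at day 0, 3 at day 4 and 5 at day 8. The share of all genes under that unadjusted cut was not taken, so these counts are a description only. At day 4 MEST alone was lower in SOX21-/- and none was higher, against 0.775% of all genes in either direction and 0.536% lower. At day 8 PLAGL1 and CDKN1C were higher and none was lower, against 2.79% of all genes in either direction and 1.47% higher. These shares of all genes moved with the libraries fitted: the 93 genes called at day 0 were 157 without WT2 and 143 without S23 of day 0, and 60 without either SOX21-/- library of day 8. The 188 called at day 4 were 30 without either wild-type library of day 4, between 73 and 114 without 1 of the 4 libraries of day 0, S13 of day 4 or either wild-type library of day 8, and 0 with the day 4 libraries alone. The 676 called at day 8 were between 225 (without WT2) and 432 (without S13) with 1 library of day 8 left out, and 97 with the day 8 libraries alone. The median difference of the 9 was 0.09 at day 0, -0.23 at day 4 and -0.18 at day 8 on the log2 scale, against 0.00, -0.12 and 0.00 over all genes tested, in that order of days. Adding 1 before taking logs makes the change of low genes look smaller than it was.

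The libraries of both genotypes did not overlap for 2 members at day 0, both higher in SOX21-/- (15.7% of all genes tested), for 1 higher and 6 lower at day 4 (11.1% and 33.8% of all genes), and for 3 higher and 4 lower at day 8 (21.4% and 21.7%). At day 4 more genes of the whole table lay lower than higher in SOX21-/-, as the median of -0.12 shows, and the members' small negative values stand beside that shift.

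PLAGL1 (ENSG00000118495.18, chr6:143940300-144064599, minus strand, GENCODE v29) encodes a zinc finger factor that restrains the cell cycle and regulates other imprinted genes in mouse; overexpression of its paternal copy is known from transient neonatal diabetes. It had 0.990 and 1.30 TPM in the SOX21-/- libraries S13 and S23 at day 0, against 1.52 and 0.590 TPM in the wild-type libraries WT1 and WT2. At day 4 it had 18.5 and 17.1 TPM in SOX21-/-, against 9.53 and 7.38 TPM in wild type. At day 8 it had 109 and 107 TPM in SOX21-/-, against 27.6 and 23.9 TPM in wild type.

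The groups overlapped at day 0 and were apart at days 4 and 8, with both SOX21-/- libraries the higher. The log2 difference was 0.09 ± 0.22 (SE) at day 0 (limma, adjusted p = 1) and 1.0 ± 0.22 at day 4, which did not pass (adjusted p = 0.0855). At day 8 it was 2.03 ± 0.22 and passed (adjusted p = 0.00355). The day 8 call was kept with each of the 12 libraries left out in turn (adjusted p between 0.00246 and 0.0354) and was lost with the day 8 libraries fitted alone (adjusted p = 0.0519).

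HYMAI, a non-coding RNA made from the imprinted PLAGL1 promoter on the same strand, had 0.789 and 1.26 TPM in SOX21-/- at day 8, against 0.182 and 0.123 TPM in wild type, and was too low to be tested. Because both are read from overlapping transcripts on 1 strand, how reads were divided between them is uncertain. Within 250 kb of PLAGL1, 4 genes were tested. One of them, PHACTR2, which encodes a regulator of phosphatase and actin and is named after its values were seen, was higher at day 8, with 27.5 and 21.6 TPM in SOX21-/-, against 14.1 and 10.7 TPM in wild type (log2 difference 0.93, limma, adjusted p = 0.0268). This call was lost in 5 of the 12 fits that left out a library, those without either wild-type library of day 4, WT2 of day 8 or either SOX21-/- library of day 8 (adjusted p up to 0.155). It was also lost with the day 8 libraries alone (0.277) and on days 4 and 8 rescaled to coding genes (0.0784).

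CDKN1C (ENSG00000129757.12, chr11:2883213-2885773, minus strand) encodes the cyclin-dependent kinase inhibitor p57, made in cells that leave the cycle and lost in some cases of Beckwith-Wiedemann syndrome. At day 0 it had 3.48 and 3.86 TPM in SOX21-/-, against 2.92 and 2.64 TPM in wild type, and at day 4 it had 8.20 and 9.48 TPM in SOX21-/-, against 8.38 and 13 TPM in wild type. At day 8 it had 35.4 and 28.1 TPM in SOX21-/-, against 15.8 and 14.3 TPM in wild type. The groups overlapped at day 4 only, and at days 0 and 8 both SOX21-/- libraries were the higher.

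The difference in CDKN1C was 0.30 ± 0.20 at day 0 (adjusted p = 1), -0.22 ± 0.20 at day 4 (adjusted p = 0.646) and 1.02 ± 0.20 at day 8 (limma, adjusted p = 0.0393). This day 8 call lay close to the threshold: it was kept in only 2 of the 12 fits that left out a library, those without WT1 or without WT2 of day 4, with adjusted p up to 0.192 in the others. It was also lost with a pseudocount of 0.1 (adjusted p = 0.0592), with no filter (0.0520) and with the day 8 libraries alone (0.219). Its size stayed between 0.86 and 1.18 with a library left out.

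GRB10 (ENSG00000106070.17, chr7:50590063-50793462, minus strand) encodes an adaptor that binds the insulin and IGF1 receptors and dampens growth signalling; in mouse, neurons express it from the paternal copy and most other tissues from the maternal one. In SOX21-/- it had 29.2 and 20.4 TPM at day 0, 51.5 and 50.0 TPM at day 4 and 53.3 and 61.8 TPM at day 8. In wild type it had 24.1 and 22.4 TPM at day 0, 57.7 and 66.9 TPM at day 4 and 64.5 and 73.9 TPM at day 8. Both SOX21-/- libraries lay below both wild-type libraries at days 4 and 8, by -0.29 ± 0.17 and -0.26 ± 0.17 on the log2 scale, and neither difference passed (limma, adjusted p = 0.432 at day 4 and 0.510 at day 8).

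MEST (ENSG00000106484.14, chr7:130486171-130506465, plus strand) encodes a protein of the hydrolase fold that is widely made in the embryo from the paternal copy. It had 89.4 and 98.7 TPM in SOX21-/- at day 0, against 95.5 and 81.8 TPM in wild type. At day 4 it had 103 and 98.4 TPM in SOX21-/-, against 165 and 163 TPM in wild type. At day 8 it had 216 and 181 TPM in SOX21-/-, against 245 and 244 TPM in wild type. At day 4 the SOX21-/- libraries overlapped their own day 0 range, whereas the wild-type libraries were above theirs.

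MEST was lower in SOX21-/- at day 4 by -0.70 ± 0.10 on the log2 scale (limma, adjusted p = 0.0337), or -0.58 relative to the median of all genes. At day 8 the groups were still apart, with a difference of -0.30 ± 0.10 that did not pass (adjusted p = 0.186), and at day 0 it was 0.09 ± 0.10 (adjusted p = 1). The day 4 call was lost under median-of-ratios scaling (-0.52, adjusted p = 0.0894), without the variance trend (adjusted p = 0.0714), with the day 4 libraries alone (0.0792) and in 8 of the 12 fits that left out a library (up to 0.156). It was kept without either wild-type library of day 0 and without either SOX21-/- library of day 8. COPG2, a coat protein gene that overlaps MEST on the other strand, had 87.7 and 88.7 TPM in SOX21-/- at day 4, against 78.2 and 75.9 TPM in wild type (log2 difference 0.19, adjusted p = 0.306). The sources used here do not say whether counting used strand, so reads of this overlap cannot be assigned with certainty.

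**Figure D2:**
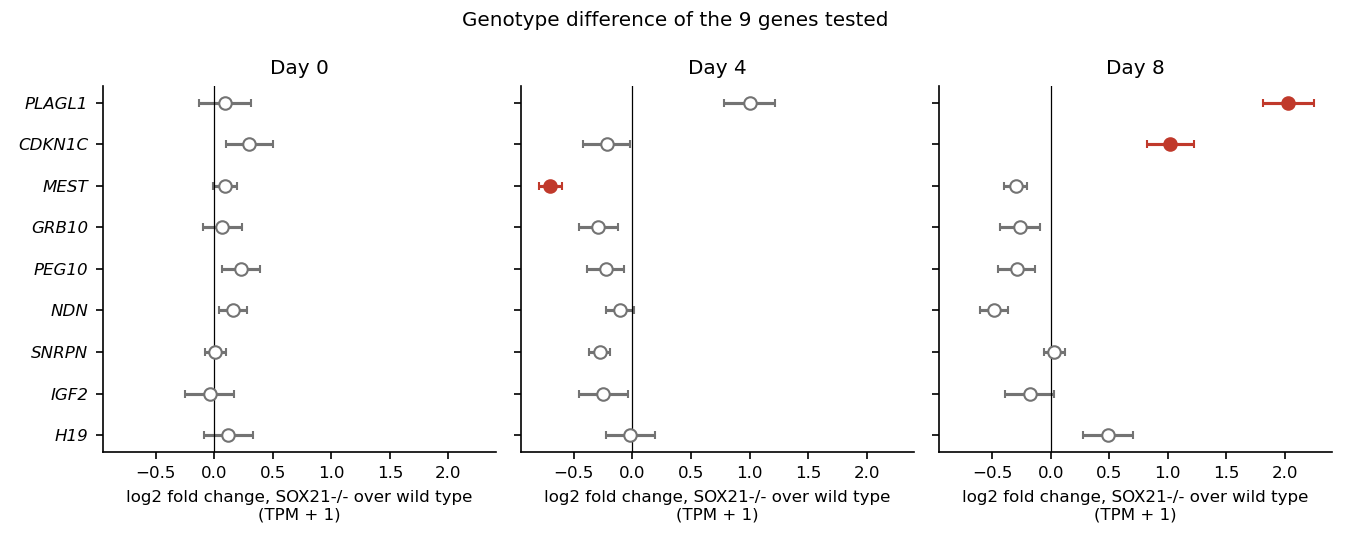
Difference between SOX21-/- and wild type for the 9 tested genes at days 0, 4 and 8, as log2 fold change on log2(TPM + 1) with its standard error (horizontal bars); filled red points passed at an adjusted p under 0.05 and open points did not. PLAGL1 moves from 0.09 at day 0 through 1.0 at day 4 to 2.03 at day 8, and MEST at day 4 is the only filled point left of 0.

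Cell type markers differed in level beside these results. The sum of 5 neuron markers at day 8 was 117 to 159 TPM in SOX21-/- and 244 to 254 TPM in wild type, and at day 4 it was 69.5 to 102 TPM in SOX21-/- and 167 to 182 TPM in wild type; none of the 5 was at 0 throughout a group. Most of the day 8 sum was TUBB3 (119 and 92.4 TPM in SOX21-/-, against 174 and 180 TPM in wild type) and STMN2 (29.4 and 20.1 TPM in SOX21-/-, against 45.0 and 46.6 TPM in wild type). ELAVL4 lay the other way (2.95 and 2.05 TPM in SOX21-/-, against 0.828 and 0.259 TPM in wild type), and 1 of the 5, DCX, passed as lower in SOX21-/- at day 8. The sum over 7 mesoderm and mesenchyme markers at day 8 was 21.0 to 27.1 TPM in SOX21-/- and 12.9 to 13.3 TPM in wild type, of which 17.2 and 24.1 TPM in SOX21-/- and 7.71 and 7.60 TPM in wild type were the collagen gene COL1A1; 2 of the 7 were tested and none passed. PDGFRA, of the mesoderm and mesenchyme list, lay the other way at day 8 (2.01 and 1.71 TPM in SOX21-/-, against 3.88 and 4.2 TPM in wild type). The sum of 5 endoderm markers at day 8 was 0.419 to 0.7 TPM in SOX21-/- and 1.03 to 1.29 TPM in wild type, with SOX17 at 0 in all libraries. For 5 trophoblast markers it was 2.25 to 3.57 TPM in SOX21-/- and 0.147 to 1.4 TPM in wild type. KRT7 of that list overlapped (2.5 and 0 TPM in SOX21-/-, against 0 and 0.59 TPM in wild type). The neural crest sum was 157 to 244 TPM in SOX21-/- and 185 to 194 TPM in wild type. No tested marker of these lists passed between genotypes. The part of these cells in the differences of PLAGL1, CDKN1C and MEST was not tested. In bulk RNA, fewer cells of a type and less RNA per cell cannot be told apart.

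IGF2 (ENSG00000167244.18, chr11:2129112-2149603, minus strand) encodes a fetal growth factor read from the paternal copy, and H19 (ENSG00000130600.17, chr11:1995176-2001470, minus strand) a non-coding RNA read from the maternal copy; at this locus both share enhancers, and binding of CTCF to an unmethylated control region keeps them from IGF2. IGF2 had 0.0657 and 0.152 TPM at day 0, 1.17 and 1.19 TPM at day 4 and 7.27 and 5.52 TPM at day 8 in SOX21-/-. In wild type it had 0.0980 and 0.176 TPM at day 0, 1.25 and 1.98 TPM at day 4 and 7.09 and 7.51 TPM at day 8. The genotypes overlapped at days 0 and 8, and the day 8 difference of -0.18 ± 0.21 did not pass (limma, adjusted p = 0.763).

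H19 had 0.260 and 0.658 TPM in SOX21-/- at day 0, against 0.329 and 0.333 TPM in wild type. At day 4 it was listed at 0 in both SOX21-/- libraries and in WT1, and at 0.0334 TPM in WT2. At day 8 it had 2.05 and 2.56 TPM in SOX21-/-, against 1.42 and 1.28 TPM in wild type, with no overlap, and the difference of 0.49 ± 0.21 did not pass (adjusted p = 0.295). IGF2 thus exceeded H19 at days 4 and 8 in every library, whereas H19 exceeded IGF2 in every library at day 0.

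The transcripts INS-IGF2 and IGF2-AS, which overlap IGF2, stayed below 0.5 TPM in every library. LINC01219, a non-coding RNA within 250 kb of both IGF2 and H19 that was named after its values were seen, was higher at day 8, with 8.51 and 8.5 TPM in SOX21-/-, against 3.27 and 2.68 TPM in wild type (log2 difference 1.26, limma, adjusted p = 0.0336). It was the only one of the 10 tested neighbours of IGF2 to pass between genotypes at any day. Its call was kept in 4 of the 12 fits that left out a library, those without a library of day 4, and was lost with any library of day 0 or day 8 left out (adjusted p up to 0.168). It was kept in 4 of 10 other alternatives and lost with a pseudocount of 0.1 (0.519), a filter at 5 TPM (0.0910), no filter (0.0530), TPM rescaled to coding genes (0.0565), the day 8 libraries alone (0.224) and days 4 and 8 rescaled to coding genes (0.114).

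PEG10 (ENSG00000242265.5, chr7:94656325-94669695, plus strand), a gene derived from a retrotransposon and needed for the placenta in mouse, had 39.2 and 29.1 TPM at day 0, 149 and 122 TPM at day 4 and 136 and 110 TPM at day 8 in SOX21-/-. In wild type it had 27.5 and 29.9 TPM at day 0, 158 and 159 TPM at day 4 and 146 and 154 TPM at day 8. Both SOX21-/- libraries were below wild type at days 4 and 8, with differences of -0.23 ± 0.16 at day 4 (limma, adjusted p = 0.528) and -0.29 ± 0.16 at day 8 (adjusted p = 0.432) that did not pass. SGCE, which encodes epsilon-sarcoglycan and starts beside PEG10 on the other strand, had 49.3 and 45.9 TPM in SOX21-/- at day 8, against 33.5 and 30.5 TPM in wild type, a difference of 0.56 that did not pass either (adjusted p = 0.0730).

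NDN (ENSG00000182636.5, chr15:23685400-23687330, minus strand) encodes necdin, a growth suppressor of postmitotic neurons. It had 7.01 and 7.74 TPM at day 0, 40.5 and 36.8 TPM at day 4 and 41.2 and 32.5 TPM at day 8 in SOX21-/-. Wild type had 6.27 and 6.67 TPM at day 0, 41.1 and 42.5 TPM at day 4 and 51.7 and 50.8 TPM at day 8. The genotypes were apart at each day, with SOX21-/- above at day 0 and below at days 4 and 8. The day 8 difference of -0.48 ± 0.12 did not pass (limma, adjusted p = 0.0901), and it passed without the SOX21-/- library S13 of day 8 (-0.64, adjusted p = 0.0464).

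SNRPN (ENSG00000128739.21, chr15:24823637-24978723, plus strand) had 280 and 266 TPM at day 0, 274 and 248 TPM at day 4 and 239 and 214 TPM at day 8 in SOX21-/-, and in wild type 262 and 281 TPM at day 0, 304 and 330 TPM at day 4 and 232 and 211 TPM at day 8. Its group means spanned only 0.52 on the log2 scale, the least of the 9 tested genes, where PLAGL1 spanned 5.76. The day 4 difference of -0.28 ± 0.09, with both SOX21-/- libraries below wild type, did not pass (adjusted p = 0.171).

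SNURF, read from the same transcript as SNRPN, was listed separately and was uneven, at 80.4 and 8.24 TPM in SOX21-/- and 139 and 67.1 TPM in wild type at day 4, so the split between both names is uncertain. Their sum was 633 and 612 TPM in SOX21-/- and 639 and 616 TPM in wild type at day 0, 354 and 256 TPM in SOX21-/- and 443 and 398 TPM in wild type at day 4, and 281 and 287 TPM in SOX21-/- and 328 and 261 TPM in wild type at day 8. The genotype difference of the sum at day 4 did not pass (-0.48, limma, adjusted p = 0.175).

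PEG3 (ENSG00000198300.12, chr19:56810077-56840728, minus strand), a zinc finger gene of maternal behaviour and growth in mouse, was listed at 0 in all 12 libraries, as were ZIM2, with which it shares exons, and the neighbouring non-coding MIMT1. An exact 0 in such a table can be a failed estimate. The neighbour ZIM2-AS1 was measured in every library, at 1.20 and 1.12 TPM in SOX21-/- and 0.884 and 1.66 TPM in wild type at day 8.

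The change of the genotype difference between days was tested as well. Between day 0 and day 4 none of the 9 genes passed, where 0.408% of all genes tested did, and between day 4 and day 8 none passed, where 1.11% did (limma). Those with an unadjusted p under 0.05 (limma) were PLAGL1 and MEST, 2 of the 9, between days 0 and 4. Between days 4 and 8 they were PLAGL1, MEST, CDKN1C and SNRPN, 4 of the 9. The share of all genes under that cut was not taken, so these counts are a description only. The difference in PLAGL1 grew by 0.91 ± 0.31 from day 0 to day 4 (adjusted p = 0.306) and by 1.03 ± 0.31 from day 4 to day 8 (adjusted p = 0.156). For CDKN1C it moved by 1.25 ± 0.29 from day 4 to day 8 (adjusted p = 0.0876), and for MEST by -0.79 ± 0.15 from day 0 to day 4 (adjusted p = 0.0931). A larger difference at day 8 than at day 4 was therefore not established for any of the genes.

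The steps between days were tested within each genotype. From day 0 to day 4, 6 of the 9 tested were higher at day 4 in SOX21-/- and none lower, where 60.6% of all genes passed and 48.1% were higher; in wild type 7 were higher and none lower, where 65.7% passed and 54.3% were higher. The members' counts of higher genes lay above these shares of all genes, and with only 9 genes tested they are a description. The median over the 9 was 1.03 in SOX21-/- and 1.38 in wild type, against 0.72 in SOX21-/- and 0.91 in wild type over all genes, so the whole table shifted upwards. Nuclear protein-coding genes made up 83.5% to 87.1% of the TPM at days 4 and 8 and 55.9% to 56.4% at day 0. Each step from day 0 was therefore also fitted with TPM rescaled to those genes and with median-of-ratios scaling.

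PLAGL1, NDN and PEG10 were higher at day 4 than at day 0 under all 3 scalings. PLAGL1 was higher by 3.14 ± 0.22 in SOX21-/- (limma, adjusted p = 4.73e-06) and 2.23 ± 0.22 in wild type (adjusted p = 2.95e-05) as deposited, and by 2.29 in SOX21-/- and 1.27 in wild type under median-of-ratios scaling. NDN was higher by 2.24 ± 0.12 in SOX21-/- and 2.52 ± 0.12 in wild type, and by 1.11 in SOX21-/- and 1.20 in wild type with that scaling. PEG10 was higher by 1.97 ± 0.16 in SOX21-/- and 2.43 ± 0.16 in wild type, and by 0.77 in SOX21-/- and 1.02 in wild type with that scaling. IGF2, at 0.98 ± 0.21 in SOX21-/- and 1.19 ± 0.21 in wild type, also stayed called with that scaling, at 0.70 in SOX21-/- and 0.76 in wild type.

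The other genes depended on the scaling. CDKN1C was higher by 1.07 ± 0.20 in SOX21-/- and 1.60 ± 0.20 in wild type as deposited. It was higher by 0.04 in SOX21-/- and 0.41 in wild type under median-of-ratios scaling, where neither passed. GRB10 was higher by 1.03 ± 0.17 in SOX21-/- and 1.38 ± 0.17 in wild type as deposited. It turned to -0.16 in SOX21-/- and -0.02 in wild type under median-of-ratios scaling. With TPM rescaled to coding genes, CDKN1C passed as higher in SOX21-/- (0.57, limma, adjusted p = 0.0431) and in wild type (1.13, adjusted p = 0.00153). GRB10 then passed as higher in wild type (0.77, adjusted p = 0.00489) and did not pass in SOX21-/- (0.42, adjusted p = 0.0695). MEST passed only in wild type as deposited (0.89 ± 0.10) and turned to -1.11 in SOX21-/- and -0.54 in wild type under median-of-ratios scaling, where both passed as lower. SNRPN was at -0.07 ± 0.09 in SOX21-/- and 0.22 ± 0.09 in wild type as deposited, neither passing, and passed as lower at -1.28 in SOX21-/- and -1.21 in wild type with that scaling. H19, listed at 0 or near it at day 4 and so given no fold, did not pass as deposited (limma, adjusted p = 0.0545 in SOX21-/- and 0.134 in wild type). It passed as lower at day 4 under median-of-ratios scaling (adjusted p = 0.0134 in SOX21-/- and 0.0345 in wild type) and with a pseudocount of 0.1 (0.00303 in SOX21-/- and 0.00897 in wild type), and in SOX21-/- also with TPM rescaled to coding genes (0.0217), no filter (0.0464), no variance trend (0.0163) and the libraries of days 0 and 4 alone (0.0232). In all, 4 of the 9 were higher and 3 lower in each genotype under median-of-ratios scaling. Of the 24248 genes tested, 5407 were then higher and 6363 lower in SOX21-/-, and 5583 higher and 6560 lower in wild type. With TPM rescaled to coding genes 5 of the 9 were higher and 3 lower in SOX21-/-, and 6 higher and 1 lower in wild type. All genes were then 8727 higher and 4341 lower in SOX21-/-, and 10297 higher and 3949 lower in wild type. No direction from day 0 to day 4 is therefore given for GRB10, MEST and SNRPN.

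**Figure D3:**
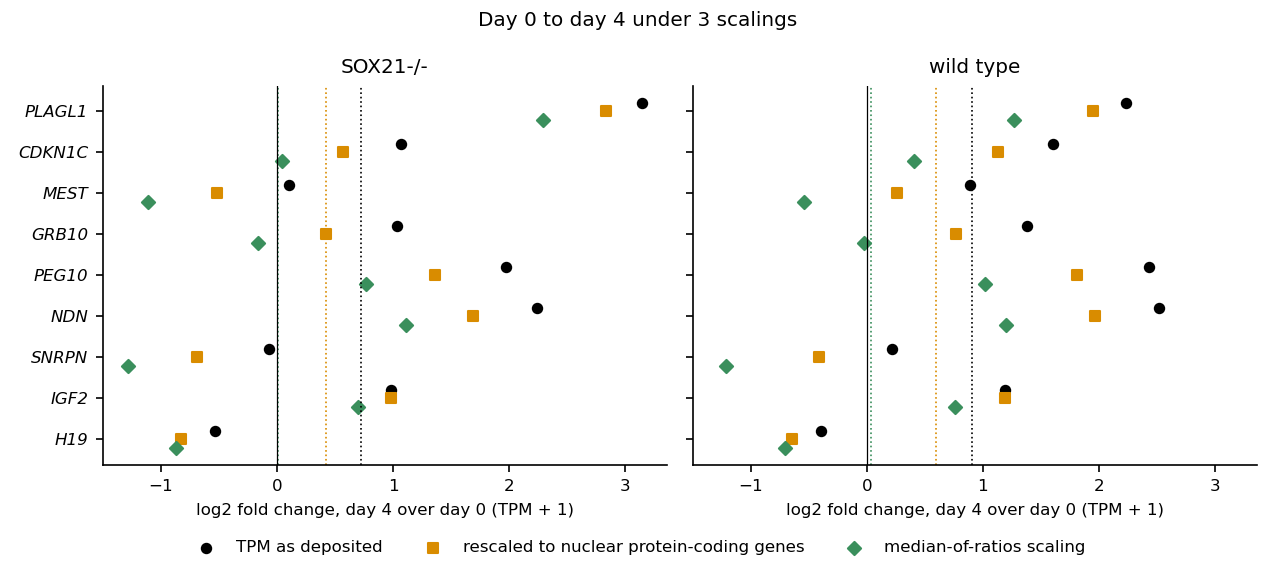
Change from day 0 to day 4 of the 9 tested genes in SOX21-/- (left) and wild type (right), as log2 fold change on log2(TPM + 1), for TPM as deposited (black circles), TPM rescaled to nuclear protein-coding genes (orange squares) and median-of-ratios scaling (green diamonds); dotted lines are the medians of all genes tested under each. PLAGL1, NDN and PEG10 lie right of 0 under all 3, while MEST and GRB10 in both genotypes and SNRPN in wild type lie on both sides of 0.

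From day 4 to day 8 the whole table moved less, with a median of 0.20 in SOX21-/- and 0.03 in wild type. In SOX21-/- 5 of the 9 genes were higher at day 8 and none lower, where 26.1% of all genes passed and 19% were higher. In wild type 4 were higher and 1 lower, where 12.6% of all genes passed, 7.62% higher and 4.99% lower. PLAGL1 was higher by 2.53 ± 0.22 in SOX21-/- and 1.51 ± 0.22 in wild type, IGF2 by 1.75 ± 0.21 in SOX21-/- and 1.68 ± 0.21 in wild type, and MEST by 0.97 ± 0.10 in SOX21-/- and 0.57 ± 0.10 in wild type. CDKN1C was higher in SOX21-/- by 1.73 ± 0.20 (limma, adjusted p = 0.00101), and in wild type its 0.48 ± 0.20 did not pass (adjusted p = 0.165); the test of that contrast is the CDKN1C change of 1.25 above, which did not pass. H19 passed in both genotypes, with no fold given because it was listed at 0 or near it at day 4. It was tested only through its day 8 libraries, so the filter favoured these H19 calls, which are in the counts above. SNRPN was lower at day 8 in wild type by -0.52 ± 0.09 (limma, adjusted p = 0.00968), a call lost when SNURF was added to it (-0.52, adjusted p = 0.0637). The wild-type calls of SNRPN and MEST were also not kept in every fit that left out a library. Their sizes then ran from -0.59 to -0.45 for SNRPN and from 0.56 to 0.58 for MEST. PEG10, GRB10 and NDN, at between -0.15 and 0.29, passed in neither genotype as deposited. Under median-of-ratios scaling 5 were higher and 1, SNRPN, lower in SOX21-/- (-0.46), with the wild-type counts as before. All genes tested were then 2389 higher and 2921 lower in SOX21-/-, and 1178 higher and 1509 lower in wild type.

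Over the 12 libraries, 5 members whose group means spanned at least 2 on the log2 scale were set against all tested genes with a group mean of at least 5 TPM, by Pearson correlation of log2(TPM + 1). The 12 points share 6 groups and the shift between day 0 and the later days, so high values are common. PLAGL1 was most like CTSB, which encodes a lysosomal protease (r = 0.9909), and CERS4, a ceramide synthase gene (r = 0.9906). IGF2 was most like SOX9, a progenitor and glial transcription factor (r = 0.9887), and NEK6, a mitotic kinase gene (r = 0.9886). CDKN1C came closest to SYDE2 (r = 0.9855) and KAZN (r = 0.9854), PEG10 to UBXN2B (r = 0.9971) and ICK (r = 0.9965), and NDN to KCTD17 (r = 0.9976) and PCDHGB6 (r = 0.9975). Among the members themselves the highest values were for PEG10 with NDN (r = 0.99) and PEG10 with GRB10 (r = 0.97). GRB10 with NDN and PLAGL1 with CDKN1C both had r = 0.96, and MEST with IGF2 had r = 0.94. The lowest was H19 with SNRPN (r = -0.80), and PLAGL1 with SNRPN had r = -0.60.

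IGF2 signals through IGF1R, is cleared by IGF2R, itself imprinted in mouse, and is held in the extracellular space by the IGF binding proteins. Of 22 genes of the IGF and insulin pathway 19 were tested, and at days 0 and 4 none differed between SOX21-/- and wild type (limma). At an unadjusted p under 0.05 (limma) the counts were 0 at day 0, 7 at day 4 and 7 at day 8. The share of all genes under that cut was not taken. At day 8, 1 was higher and 1 lower (2.79% of all genes passed), and the median of the 19 was 0.09, against 0.00 over all genes. IRS4, which encodes an adaptor of the insulin receptor family, had 53.0 and 53.0 TPM in SOX21-/- at day 8, against 27.8 and 19.5 TPM in wild type (1.15 ± 0.17, limma, adjusted p = 0.0112). IGFBP3, a binding protein that also curbs growth on its own, had 26.9 and 26.2 TPM in SOX21-/- at day 8, against 120 and 102 TPM in wild type (log2 difference -2.02, adjusted p = 0.0141). The IRS4 call was lost without WT2 or either SOX21-/- library of day 8 (adjusted p up to 0.0679), and the IGFBP3 call without any 1 of the 4 libraries of day 8 (up to 0.0835); both were lost with the day 8 libraries alone and on days 4 and 8 rescaled to coding genes (up to 0.235 for IRS4 and 0.0831 for IGFBP3).

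The receptors passed in no genotype comparison. IGF1R had 46.1 and 38.7 TPM in SOX21-/- at day 8, against 42.3 and 37.3 TPM in wild type, and IGF2R had 42.7 and 37.7 TPM in SOX21-/-, against 39.1 and 34.3 TPM in wild type. The circulating relative of IGF2, IGF1, was at 0.18 and 0 TPM in SOX21-/- at day 8, against 0 and 1.05 TPM in wild type. From day 0 to day 4, 8 of the 19 were higher and 2 lower in SOX21-/-, where 60.6% of all genes passed and 48.1% were higher. In wild type 11 were higher and 2 lower, where 65.7% of all genes passed and 54.3% were higher. Under median-of-ratios scaling all genes tested were 5407 higher and 6363 lower in SOX21-/-, and 5583 higher and 6560 lower in wild type. The split of the 19 was then 5 higher and 10 lower in SOX21-/-, and 5 higher and 9 lower in wild type. Among those that passed, the largest rises, kept in direction under that scaling, were IRS4 (4.07 in SOX21-/- and 4.17 in wild type), IGFBP3 (3.39 in SOX21-/- and 4.68 in wild type) and IGFBP5 (2.98 in SOX21-/- and 4.92 in wild type). IGFBP6 was lower in both (-1.81 in SOX21-/- and -2.05 in wild type), as were IGFBP4 in SOX21-/- (-0.48) and STC2 in wild type (-1.82). From day 4 to day 8, 6 were higher and 1 lower in SOX21-/-, where 26.1% of all genes passed and 19% were higher. In wild type 3 were higher and 2 lower, where 12.6% of all genes passed and 7.62% were higher. Under median-of-ratios scaling all genes tested were 2389 higher and 2921 lower in SOX21-/-, and 1178 higher and 1509 lower in wild type. Of the 19, 1 was then higher and 1 lower in SOX21-/-, and 1 higher and 3 lower in wild type. Among those that passed, IGFBP5 rose most in both (4.16 in SOX21-/- and 2.26 in wild type), followed by IGFBP2 (1.23) and IRS4 (0.72) in SOX21-/- and by the protease genes PAPPA (1.26) and PAPPA2 (1.11) in wild type. STC1 was lower in both (-1.12 in SOX21-/- and -0.99 in wild type), and IRS4 was lower in wild type (-0.73). PAPPA2 reached 1 TPM only in the wild-type libraries of day 8, at 1.82 and 1.60 TPM, so the filter favoured its call.

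**Figure D4:**
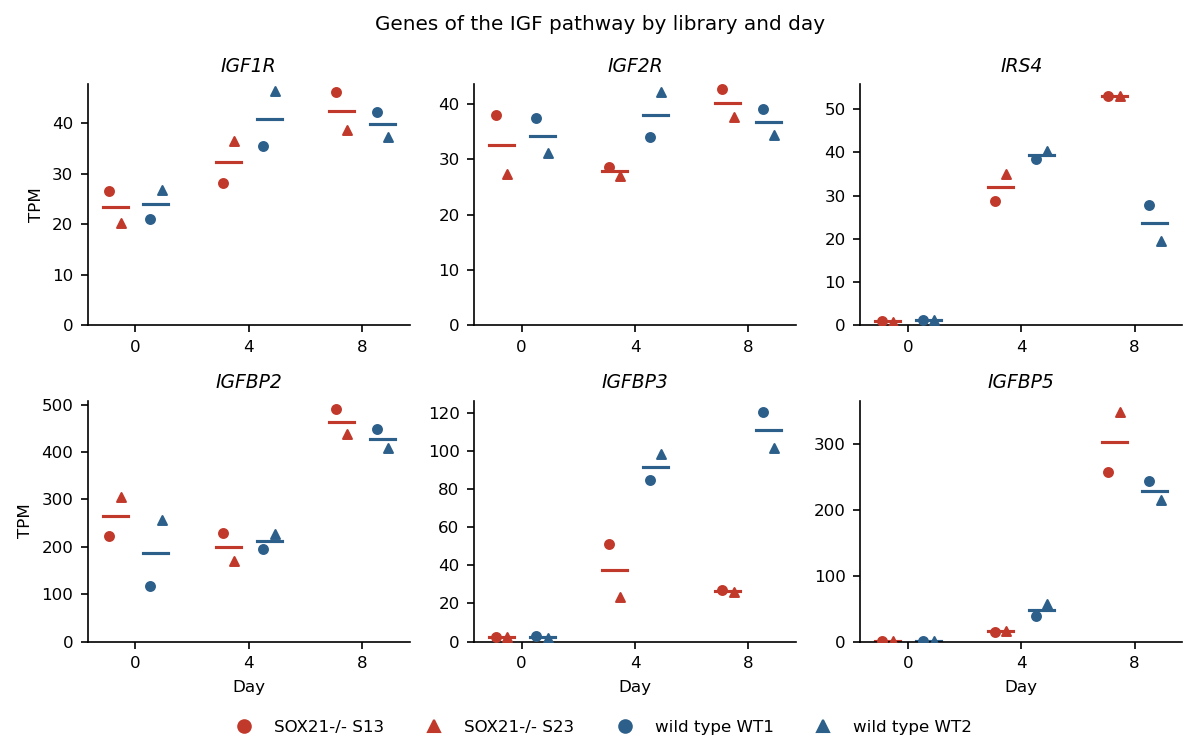
TPM (vertical axis, linear, from 0) of 6 genes of the IGF pathway against day of differentiation, with SOX21-/- in red to the left and wild type in blue to the right at each day; points are single libraries and the bar is the mean of 2. At day 8 IRS4 is at 53.0 TPM in both SOX21-/- libraries and at 19.5 and 27.8 TPM in wild type, and IGFBP3 is at 26.2 and 26.9 TPM in SOX21-/- and at 102 and 120 TPM in wild type.

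A list of 46 other imprinted genes outside chromosome 14 gave 44 in the table and 32 tested. None of the 32 differed between SOX21-/- and wild type at day 0, 4 or 8 (limma), where 0.384%, 0.775% and 2.79% of all genes did; at an unadjusted p under 0.05 the counts were 0, 11 and 9. The share of all genes under that unadjusted cut was not taken. The median difference of the 32 was 0.06 at day 0, -0.28 at day 4 and 0.02 at day 8. From day 0 to day 4, 16 were higher and 8 lower in SOX21-/-, where 60.6% of all genes passed and 48.1% were higher. In wild type 19 were higher and 3 lower, where 65.7% of all genes passed and 54.3% were higher. Under median-of-ratios scaling all genes tested were 5407 higher and 6363 lower in SOX21-/-, and 5583 higher and 6560 lower in wild type. Of the 32, 6 were then higher and 16 lower in SOX21-/-, and 6 higher and 13 lower in wild type. Among those that passed, the largest rises in SOX21-/- were PPP1R9A, a neuronal actin-binding protein gene (2.58), ZDBF2 (1.96) and BLCAP (1.82), and the largest falls SNURF (-3.68), TFPI2, a protease inhibitor gene (-1.63), and SLC22A18, a transporter gene (-1.21). In wild type they were PPP1R9A (2.88), NNAT, a brain proteolipid gene (2.28), and ZDBF2 (2.20), and TFPI2 (-1.54), PHLDA2, a placental growth regulator (-1.02), and ATP10A (-0.96), while SNURF, at -1.87, did not pass (adjusted p = 0.0893). From day 4 to day 8, 13 were higher and 1 lower in SOX21-/-, where 26.1% of all genes passed and 19% were higher. In wild type 4 were higher and 2 lower, where 12.6% of all genes passed and 7.62% were higher. Under median-of-ratios scaling all genes tested were 2389 higher and 2921 lower in SOX21-/-, and 1178 higher and 1509 lower in wild type. The counts of the 32 were then 8 higher and 3 lower in SOX21-/-, and 1 higher and 2 lower in wild type. Among those that passed, SLC22A18 (2.10), MKRN3, a gene that restrains the onset of puberty (1.29), and PHLDA2 (1.17) rose most in SOX21-/-, and HM13 was lower (-0.62). NAP1L5 (1.14), SLC22A18 (1.09) and TRAPPC9 (0.85) rose most in wild type, where KCNQ1, at 1.20, and PHLDA2, at 1.06, did not pass (adjusted p = 0.0679 for KCNQ1 and 0.0900 for PHLDA2), and SNHG14, the long transcript downstream of SNRPN (-0.73), and INPP5F (-0.47) were lower. MKRN3 reached 1 TPM only in the SOX21-/- libraries of day 8, at 1.63 and 1.26 TPM, so the filter favoured its call.

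Factors that keep imprints through cell division were followed as a list of 21, of which 15 were tested. None differed between SOX21-/- and wild type at any day (limma; 2, 4 and 2 at an unadjusted p under 0.05), with medians of -0.01, -0.28 and -0.03 at days 0, 4 and 8. ZFP57, the zinc finger protein that binds methylated imprint controls, was below 1 TPM in all libraries, and ZNF445, which shares that role, had 29.2 and 32.6 TPM in SOX21-/- at day 8, against 25.1 and 26.2 TPM in wild type. From day 0 to day 4, 11 were higher and 1 lower in each genotype, where 48.1% of all genes were higher in SOX21-/- and 54.3% in wild type. Under median-of-ratios scaling all genes tested were 5407 higher and 6363 lower in SOX21-/-, and 5583 higher and 6560 lower in wild type. Of the 15, 6 were then higher and 5 lower in each genotype. UHRF1, which guides the maintenance methyltransferase (3.11 in SOX21-/- and 3.13 in wild type), and ZNF445 (2.86 in SOX21-/- and 3.19 in wild type) rose most among those that passed, followed by the demethylation enzyme gene TET2 in SOX21-/- (1.96) and by CTCF in wild type (2.04). TRIM28, the corepressor bound by zinc finger proteins, was lower (-1.14 in SOX21-/- and -0.71 in wild type). From day 4 to day 8, 3 were higher and 3 lower in SOX21-/-, where 26.1% of all genes passed and 19% were higher. In wild type none was higher and 5 were lower, where 7.62% of all genes were higher and 4.99% lower. Under median-of-ratios scaling all genes tested were 2389 higher and 2921 lower in SOX21-/-, and 1178 higher and 1509 lower in wild type. Of the 15, 1 was then higher and 8 lower in SOX21-/-, with the wild-type counts as before. ARID4A (1.21), ZNF445 (0.76) and SMCHD1 (0.58) rose in SOX21-/-, while the methyltransferase gene DNMT3B (-1.09), UHRF1 (-0.62) and CTCF (-0.39) were lower. In wild type DNMT3B (-1.42), TET3 (-0.65) and CTCF (-0.50) were lowered most.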

How the data were processed

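The deposited values were TPM per gene, which the authors estimated with Salmon 0.8.2; base calling used CASAVA 1.7 and the genome build was hg38, per the submitters' processing notes. Which annotation and strand setting they used is not given. The labels name several sequencers without assigning libraries to them. TPM keeps no read numbers, so depth and its precision are unknown.

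Testing covered the 24248 genes that reached 1 TPM in 2 or more of the 12 libraries. Values were taken as log2(TPM + 1), and limma 3.58.1 under R 4.3.3 was given 1 mean for each of the 6 groups, leaving 6 residual and 2.29 prior degrees of freedom. It used a variance trend, two-sided tests and Benjamini-Hochberg adjustment over all genes within each comparison at 0.05. The fit was also run on simulated data that lacked the shift after day 0, and no result rests on that run. Every adjusted p is from limma, and ± on a log2 fold change is its standard error. Counts at an unadjusted p under 0.05 were not set against the share of all genes, so they are a description only.

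The members, gene lists and tests were chosen with earlier results of these data known. Members were always named; list genes were named where they passed between genotypes or were among the 3 largest changes each way of those that passed in a day step. PHACTR2, LINC01219, KCNQ1 and genes shown for their place or role, such as COPG2, SGCE, IGF1R and ZFP57, fall outside that rule. Positions are from GENCODE v29, whose identifiers matched 57881 of 58219 without version, and promoter sequences from RefSeq on GRCh38.p14. The alternatives were another pseudocount (0.1), a filter at 5 TPM or none, median-of-ratios scaling, TPM rescaled to nuclear protein-coding genes, no variance trend, only the libraries of the days compared, the line label as a block, and each library left out; a fit on days 4 and 8 rescaled to coding genes and SNURF added to SNRPN were chosen after seeing the data.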

Additional observations from a re-analysis of the deposited data

Results flagged for a closer look

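IRS4 stood out because its genotype difference changed between days by a test of that change itself. The difference between SOX21-/- and wild type was 1.46 ± 0.24 (SE) larger on the log2 scale at day 8 than at day 4 (limma, adjusted p = 0.0367). IRS4 had 28.8 and 34.9 TPM in SOX21-/- at day 4, against 38.4 and 40.4 TPM in wild type, and 53.0 and 53.0 TPM in SOX21-/- at day 8, against 27.8 and 19.5 TPM in wild type. This call lay close to the threshold: it was kept in 2 of the 12 fits that left out a library, those without WT1 of day 8 or the SOX21-/- library S23 of day 4 (adjusted p up to 0.125 in the others), and in 5 of 10 other alternatives, among which median-of-ratios scaling did not keep it.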

How the results depend on the processing

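The results rest on 2 libraries per group, and no read numbers are known, so a difference that did not pass is not shown to be absent. At day 4 the number of members called, 1 as reported, was 0 under median-of-ratios scaling, without the variance trend, with the day 4 libraries alone and on days 4 and 8 rescaled to coding genes, and 0 to 1 with a library left out. At day 8 it was 2 as reported, 1 with a pseudocount of 0.1, without a filter and on days 4 and 8 rescaled, 0 with the day 8 libraries alone, and 1 to 2 with a library left out. For day 8 against day 4 in wild type it was 3 to 5 with a library left out. Why these changed was not tested. Whether the line labels pair libraries across days is not known. Deviations from the group means correlated between days at most at 0.0712 over genes. Noise between libraries can also keep that value low, so it does not decide the pairing. With the line label as a replicate block the counts of members called were as reported, except from day 0 to day 4 in wild type. There 8 were called and not 7, SNRPN being added (0.22, limma, adjusted p = 0.0475).

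Signs turned as follows, and the cause was not tested. Under median-of-ratios scaling MEST from day 0 to day 4 was -1.11 in SOX21-/- and -0.54 in wild type, GRB10 -0.16 in SOX21-/- and -0.02 in wild type, SNRPN -1.21 in wild type, GRB10 from day 4 to day 8 -0.08 in SOX21-/-, NDN between genotypes at day 4 0.06, SNRPN at day 0 -0.03, and the change of the genotype difference from day 4 to day 8 -0.03 for IGF2 and -0.15 for GRB10. Rescaled to coding genes, MEST from day 0 to day 4 was -0.52 in SOX21-/-, SNRPN -0.41 in wild type, and SNRPN between genotypes at day 0 -0.01. With SNURF added, SNRPN was -0.01 at day 0 and -0.04 at day 8 between genotypes, and -0.58 from day 0 to day 4 in wild type. With a library left out, day 0 genotype differences ran from -0.24 to 0.43 for PLAGL1, -0.02 to 0.20 for MEST, -0.08 to 0.32 for H19, -0.09 to 0.02 for IGF2, -0.18 to 0.32 for GRB10 and -0.04 to 0.05 for SNRPN, the day 4 one from -0.51 to 0.07 for CDKN1C, and the day 8 one from -0.04 to 0.11 for SNRPN. Day steps in SOX21-/- ran from -0.14 to 0.01 for SNRPN to day 4, and from -0.30 to 0.00 for PEG10 and -0.24 to 0.09 for NDN to day 8. The change of the genotype difference ran from -0.34 to 0.06 for H19 to day 4, and to day 8 from -0.13 to 0.28 for IGF2, -0.22 to 0.09 for PEG10 and -0.08 to 0.13 for GRB10.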
